A study of Mus musculus with 113 samples.

Results

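The comparison asked which genes changed in mouse embryonic stem cells (mESCs) between an early window, before neural genes were high, and a late window, when they were. Cells of the R1 line, an established mESC line, were differentiated as an adherent monolayer in N2B27, a serum-free medium without added inducers, on gelatin. Of the 113 samples of the series, 15 are cell populations of this adherent monoculture, and the 6 described here are those taken at 35.5, 41.5 and 53.5 h (early window) and at 80.5, 92.5 and 101.5 h (late window). All 6 are the same line, with no mutation or drug named, and differ in the labels by time alone. One library was sequenced at each time and no replicate cultures are named, so the 3 time points of a window stand in for replicates, and a p-value measures the spread between these samples, which holds both change within the window and differences between libraries.

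Gene levels were given as FPKM, fragment counts scaled to transcript length and to the mapped fragments of a library, and were compared as log2(FPKM + 1), a scale that understates the change of genes near or below 1 FPKM. All 13738 genes listed were considered, and the 11918 with an FPKM above 1 in at least 3 of the 6 samples were tested with limma (moderated test, two-sided, Benjamini-Hochberg adjusted p below 0.05). A gene is said below to have risen or fallen only where it passed this test, late against early. Read depth cannot be recovered from FPKM and is unknown. Since the samples are bulk populations, fewer cells of a type and less RNA per cell cannot be told apart.

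As background, mESCs in a serum-free medium without factors that hold the naive state first lose the naive pluripotency network, pass through a state like the formative epiblast, in which *Pou5f1* is still high and factors such as *Otx2* and *Pou3f1* are induced, and then become neuroectoderm marked by *Sox1*. FGF signalling is needed for the exit from the naive state, whereas BMP and Nodal signals oppose the neural fate. Notch signalling later keeps neural progenitors from becoming neurons, and retinoic acid and Wnt signals shift their identity towards the hindbrain and spinal cord.

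Markers of 4 cell states were checked, 4 genes to a state. The states and their markers were chosen here, since the labels name no cell state. All 4 neural progenitor markers and 3 of the neuronal ones rose, and 3 of the naive markers and 1 of the epiblast ones fell. The neuronal marker *Dcx* was above 1 FPKM in late samples alone, so the filter fixed its direction. The summed FPKM of the neural progenitor markers *Sox1*, *Pax6*, *Nes* and *Fabp7* was 16.4 to 45.0 in the early libraries and 141 to 198 in the late ones. That of the naive markers *Zfp42*, *Klf4*, *Esrrb* and *Nanog* was 153 to 324 early and 47.6 to 66.1 late. The epiblast markers *Fgf5*, *Pou3f1*, *Otx2* and *Dnmt3b* summed to 317 to 518 early and 232 to 293 late, and the neuronal markers *Tubb3*, *Dcx*, *Stmn2* and *Elavl3* to 108 to 181 early and 208 to 251 late. For each of these 4 sums the windows did not overlap, with an exact permutation p of 0.1, the smallest that 3 against 3 samples can give.

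The early libraries at 35.5 and 41.5 h stood apart in a way that touches several results. Among the 11579 tested genes with a transcript model, the 2895 with the lowest GC content (33.1 to 45.9%) lay at a median of -0.51 on the log2 scale below its own typical level at 35.5 h and -0.65 at 41.5 h, but at 0.02 at 53.5 h. For the 2895 with the highest GC content the same medians were -0.01, 0.17 and -0.09. In all, 493 tested genes lay at least 1 log2 unit below both the 20.5 h and the 53.5 h library in both of these libraries, against 3 genes that lay as far above, and their median GC content was 40.1% against 50.7% for all. The part of library preparation in this was not tested. In the comparison below 85 of the 493 genes rose and 0 fell, with a median log2 difference of 1.10. Without the 35.5 and 41.5 h libraries their median was -0.08. Some results, not all that change, are therefore given again without the 35.5 and 41.5 h libraries. That fit assumes the single early library to vary as the late ones do. List medians not repeated below became -1.40 for naive genes, 2.06 for neural progenitor factors, 0.78 for proneural genes and -0.43 for the p53 pathway. Some results are also given after a correction for transcript GC content and length, which recentres each library as well.

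**Figure D1:**
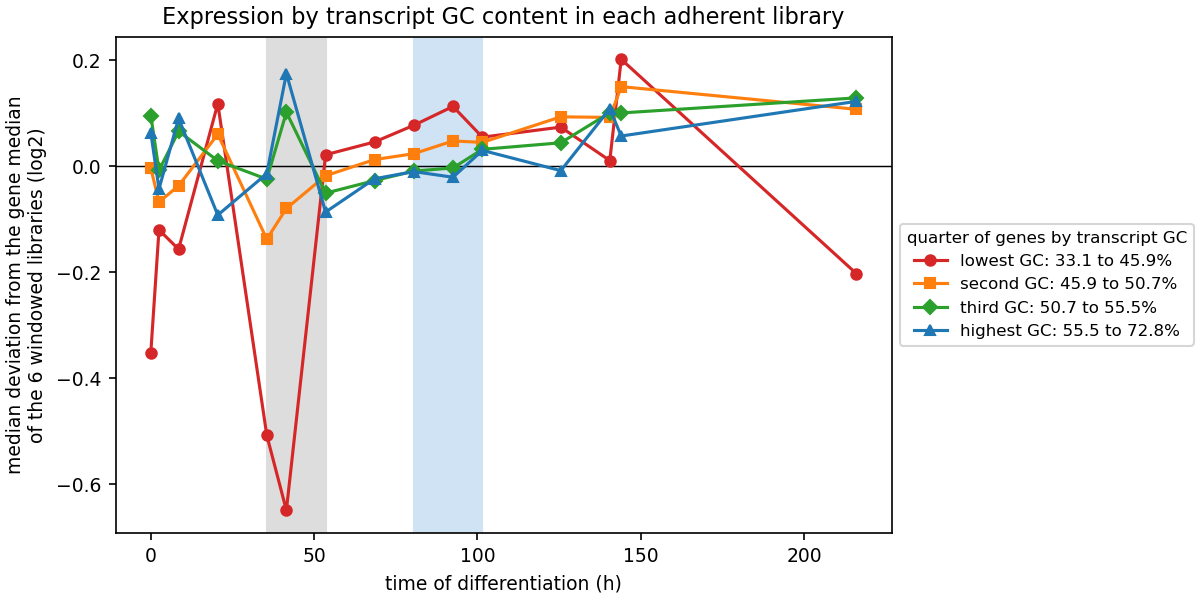
Median deviation of 4 equal groups of genes, ranked by the GC content of their transcripts, from each gene's median over the 6 windowed libraries (y axis, log2), against time of differentiation in hours (x axis), 1 library per time. The group of lowest GC content drops to -0.51 at 35.5 h and -0.65 at 41.5 h and is near 0 at 53.5 h and in the late window, while that of highest GC content stays between -0.09 and 0.17 in the 6 libraries.

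Across all genes, 2760 rose (23.2%) and 1575 fell (13.2%), together 36.4% of those tested, and 5838 genes had an unadjusted p below 0.05. The counts of every gene list below are to be read against these shares. For 402 tested genes above 1 FPKM in late samples alone, and 181 in early samples alone, the filter fixed the direction. Among genes named below this holds for *Nr2f1*, *Pou3f2*, *Ednrb*, *Dbx1*, *Neurog1*, *Dcx*, *Cyp26b1* and *Wnt7b*, and for others with no early value above 1 FPKM. Their adjusted p is no evidence of a direction. The 3 late values lay entirely above or below the 3 early ones for 53.4% of genes, and for 4329 of the 4335 that passed. The median log2 difference of all genes was 0.17, and changes are to be read relative to it. With libraries scaled by their median ratios this shift fell to 0.02 and the split became 2083 higher (17.5%) and 2271 lower (19.1%). Without the 35.5 and 41.5 h libraries 2443 rose (20.5%) and 1480 fell (12.4%, median of all genes 0.07), of which 1999 and 1076 were the same genes as before. After GC and length correction 2475 rose (21.4%) and 2777 fell (24.0%) of 11579 genes (median -0.02). Among the 2895 genes of lowest GC content 27.2% rose and 4.28% fell, against 15.0% and 11.6% without these libraries. Larger changes were fewer, with 133 genes higher by over 2 on the log2 scale (1.12%) and 83 lower by over 2 (0.696%).

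The largest rise was that of *Ptn*, a secreted growth factor made by neural progenitors and radial glia, at 2.39, 2.75 and 7.07 FPKM early and 61.6, 117 and 119 FPKM late (log2 difference 4.36 ± 0.38 SE, limma adjusted p = 0.0011). Its lowest late value was several times its highest early value. *Fabp7* (a fatty acid binding protein of radial glia), *Crabp2* and *Crabp1* (which bind retinoic acid in the cytoplasm), *Hes5* (a Notch target), *Rgma* (a guidance molecule), *Nr2f1* (a nuclear receptor), *Sfrp1* (a secreted Wnt inhibitor), *Ly6h* and *Dbx1* (a homeodomain factor of spinal interneuron progenitors) made up the rest of the 10 largest rises, with log2 differences of 3.42 to 3.79. *Crabp1* reached the highest level, at 66.0, 133 and 65.1 FPKM early and 443, 1139 and 1450 FPKM late.

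The rise of *Fabp7* depended on the early libraries in its size. It was at 1.05 and 1.49 FPKM at 35.5 and 41.5 h, already at 15.8 FPKM at 53.5 h, and at 54.1, 55.3 and 72.3 FPKM late (log2 difference 3.79 ± 0.73 SE, adjusted p = 0.0078). Against 53.5 h alone its log2 difference was 1.86 (adjusted p = 0.00028). The late values lay above all early ones in either case.

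Among the 10 largest falls were *Nr0b1*, *Esrrb* and *Zfp42* of the naive list. *Gm7325*, *Aqp3* (a water and glycerol channel), *Nr0b1* and *Esrrb* (nuclear receptors of the naive network), *Notum* (an enzyme that inactivates Wnt proteins), *AU018091* and *Zfp42* (also called Rex1) fell by 2.84 to 3.18 on the log2 scale. The other three did not stay low after the late window. *Rmrp*, the RNA of the RNase MRP complex, was at 83.4, 83.0 and 22.0 FPKM early and 1.26, 2.96 and 3.15 FPKM late (log2 difference -4.03 ± 0.52 SE, adjusted p = 0.0019). It was, however, already at 6.16 FPKM at 20.5 h after 101 FPKM at 8.5 h, and was back at 24.8 to 52.7 FPKM from 125.5 to 216 h. *Rpph1*, the RNA of RNase P, was at 13.0 FPKM at 20.5 h, 4.35 to 4.83 FPKM late and 23.1 to 52.1 FPKM afterwards, and *Lars2*, a mitochondrial tRNA synthetase, at 214 FPKM, 83.0 to 120 FPKM and 411 to 715 FPKM at the same times. In these 3 genes low and high libraries alternate along the time course, and the cause was not tested.

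**Figure D2:**
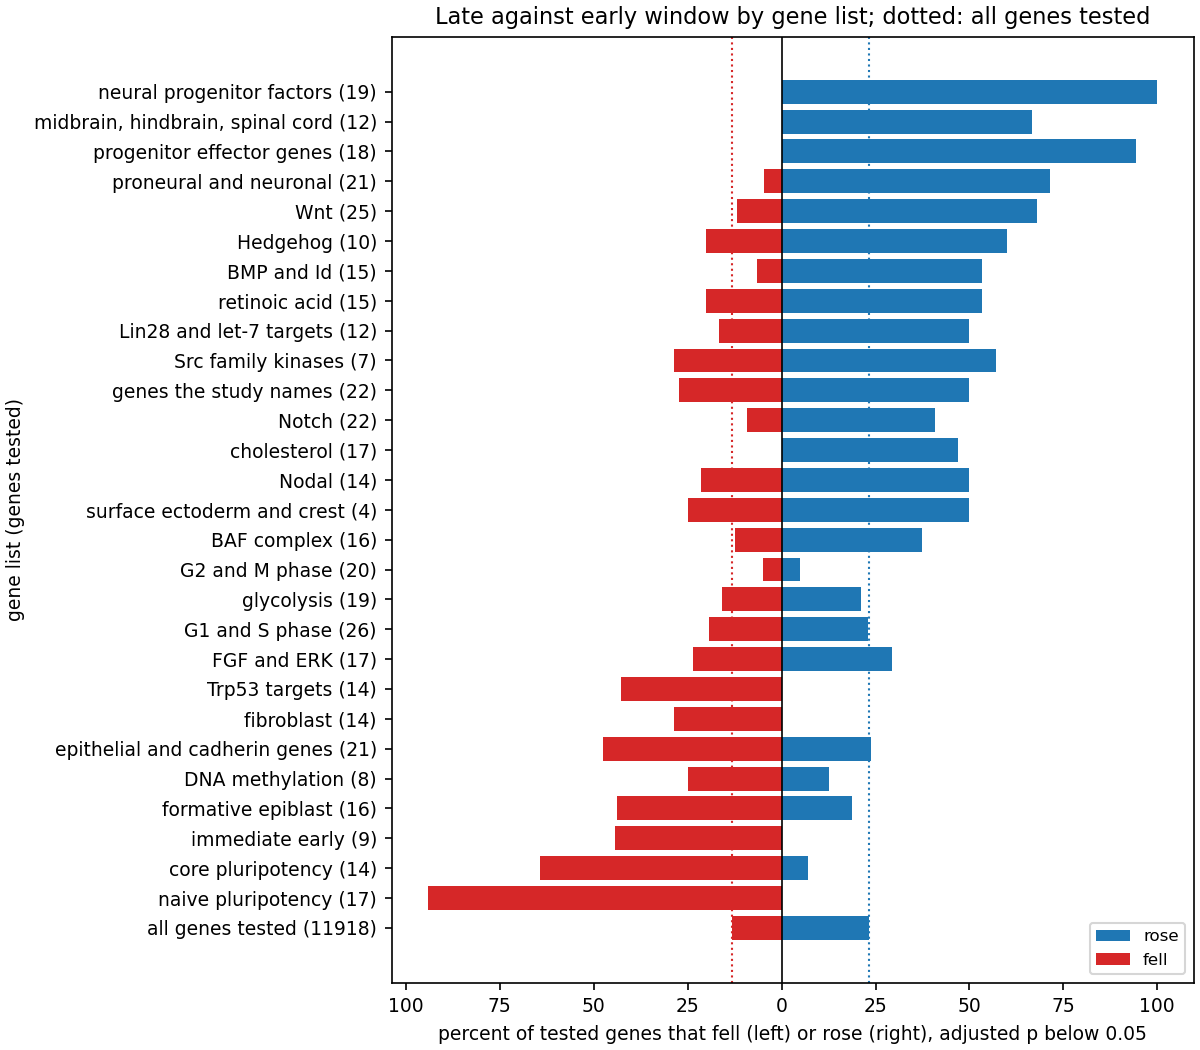
Share of the tested genes of each list that rose (right, blue) or fell (left, red), in percent, late against early, with the number tested in brackets and dotted lines for all 11918 genes. Of the neural progenitor factors 19 of 19 tested rose and of the naive genes 16 of 17 fell (7 and 2 of these had their direction fixed by the filter). Of 26 G1 and S phase genes 6 rose and 5 fell, and of 20 G2 and M phase genes 1 rose and 1 fell.

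Nearly all genes of the naive pluripotency network fell. Of its 17 genes, all tested, 16 fell and 0 rose, with a median log2 difference of -1.92 against 0.17 for all genes. As 2 genes passed the filter through the early samples alone and so had to be lower late, the other 15 are given apart, of which 14 fell. *Esrrb* was at 50.4, 40.8 and 18.7 FPKM early and 4.27, 2.80 and 2.71 FPKM late (-3.05 ± 0.35 SE, adjusted p = 0.0015). *Zfp42* was at 189, 161 and 92.3 FPKM early and 21.5, 17.3 and 17.9 FPKM late (-2.84 ± 0.26 SE, adjusted p = 0.0011). In both genes the highest late value lay well below the lowest early one, and the early values themselves declined with time.

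*Nr0b1*, a repressor that binds *Pou5f1* and *Nr5a2*, kept its level through the early window, at 39.0, 34.8 and 33.4 FPKM, and then dropped to 4.52, 1.93 and 3.79 FPKM (-3.10 ± 0.24 SE, adjusted p = 0.0010). The Krüppel-like factors *Klf2*, *Klf4* and *Klf5*, which are interchangeable in part in holding the naive state, fell by 2.58, 2.06 and 2.27. *Dppa5a*, an RNA-binding protein of the germ line and mESCs, was the most abundant gene of the list at 575 to 856 FPKM early and 166 to 195 FPKM late, and fell by 2.00. *Fgf4*, the autocrine FGF ligand of mESCs, fell by 1.58 (adjusted p = 0.0012). *Nanog* was the exception, at 75.8, 64.9 and 37.6 FPKM early and 39.2, 37.0 and 26.1 FPKM late (-0.75, adjusted p = 0.068), so that the windows overlapped, and against 53.5 h alone the difference was -0.16 (adjusted p = 0.58). It stayed at 24.5 to 43.7 FPKM from 125.5 to 216 h.

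Most genes of the general pluripotent state fell too. Of 14 tested, 9 fell, 1 rose and 4 did not pass (median -0.95), and 12 fell against 53.5 h alone (median -1.14). *Pou5f1*, the central pluripotency factor also known as Oct4, was at 599, 735 and 521 FPKM early and 256, 154 and 182 FPKM late (-1.66 ± 0.21 SE, adjusted p = 0.0018). The windows did not overlap, but *Pou5f1* was still among the abundant transcripts at 101.5 h. *Utf1*, a chromatin factor of the same state, dropped further, from 480, 648 and 505 FPKM to 130, 78.6 and 108 FPKM (-2.37 ± 0.20 SE, adjusted p = 0.0010). The paired genes *Dppa2* and *Dppa4* fell by 1.92 and 1.68, and *Tdgf1*, the Nodal co-receptor Cripto, by 1.40. *Sox2*, a factor of both pluripotent and neural cells, was at 80.5 to 89.3 FPKM early and 66.2 to 67.3 FPKM late, the smallest fall of the list (-0.36 ± 0.09 SE, adjusted p = 0.024). *Lin28a*, an RNA-binding protein that blocks let-7 maturation, was the 1 gene that rose (0.87, adjusted p = 0.031).

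*Rif1*, a replication timing factor, showed how far the early libraries can carry a value. It was at 3.83 and 2.01 FPKM at 35.5 and 41.5 h but at 49.4 FPKM at 53.5 h, and at 28.5, 24.1 and 18.8 FPKM late. Its log2 difference was 1.44 (adjusted p = 0.25) and, against 53.5 h alone, -1.04 (adjusted p = 0.0042). *Sall4*, a zinc finger partner of *Pou5f1*, was at -0.38 (adjusted p = 0.075), and passed after scaling by median ratios (-0.55, adjusted p = 0.033).

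The formative epiblast list peaked inside the early window. Of its 16 genes, 7 fell, 3 rose and 6 did not pass (median -0.61). Its mean log2(FPKM + 1) climbed from 3.26 at 0 h to 5.47 at 53.5 h, was 5.29 at 68.5 h and then 4.87, 4.60 and 4.55 in the late window. *Otx2*, which drives the shift from the naive to the formative state and later marks fore- and midbrain, was at 79.3, 76.7 and 76.7 FPKM early and 23.7, 20.5 and 22.2 FPKM late (-1.77 ± 0.10 SE, adjusted p = 0.0010). *Foxd3* (a repressor of the epiblast), *Dnmt3a* (a de novo DNA methyltransferase) and *Etv5* (an ETS factor downstream of FGF) fell by 1.71, 1.64 and 1.63 with similarly tight windows. Each of these 4 genes was lower in all 3 late samples.

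*Fgf5*, *Pou3f1* and *Dnmt3b*, the usual markers of this state, did not pass, and in each the 53.5 h value was the highest of the early ones. *Fgf5*, the epiblast FGF ligand, was at 2.54, 3.82 and 11.4 FPKM early and 5.72, 4.48 and 4.37 FPKM late (-0.03 ± 0.43 SE, adjusted p = 0.96). *Pou3f1*, a POU factor that promotes neural fate, was at 19.6, 30.4 and 47.4 FPKM early and 23.6, 16.3 and 18.4 FPKM late (-0.64, adjusted p = 0.13). *Dnmt3b* was at 215, 246 and 383 FPKM early and 240, 193 and 187 FPKM late (-0.41, adjusted p = 0.17). Against 53.5 h alone *Fgf5*, *Pou3f1* and *Dnmt3b* differed by -1.08, -1.26 and -0.90 (adjusted p = 0.0022, 0.0013 and 0.0023), and 12 of the 16 genes of the list then fell and 2 rose (median -1.09). *Zic2*, a zinc finger factor of epiblast and neural plate, was at -0.08 (adjusted p = 0.74).

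The 3 members of the list that rose are also used by neural tissue. *Sox3*, a partner of *Sox1* and *Sox2* in neural progenitors, went from 5.90, 18.9 and 18.3 FPKM to 48.7, 56.1 and 59.9 FPKM (2.01 ± 0.39 SE, adjusted p = 0.0079). *Wnt8a*, a posteriorising Wnt ligand, went from 4.40, 8.20 and 16.6 FPKM to 71.3, 43.1 and 36.6 FPKM (2.37 ± 0.43 SE, adjusted p = 0.0063) and was at 2.86 to 19.4 FPKM from 125.5 h on. *Sall2* was higher by 0.95.

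**Figure D3:**
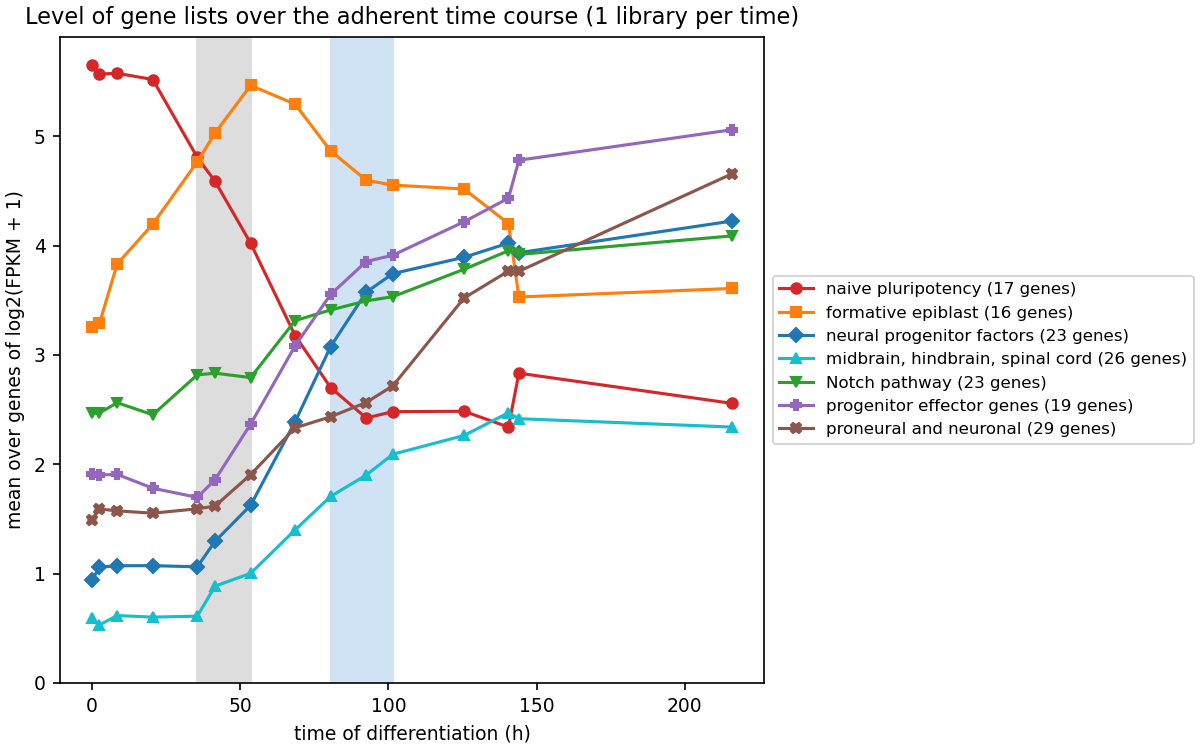
Mean over the listed genes of log2(FPKM + 1) (y axis) for 7 gene lists in the 15 adherent libraries, against time of differentiation in hours (x axis), 1 library per time. The naive list falls from 5.66 at 0 h to 2.48 at 101.5 h, the formative list peaks at 5.47 at 53.5 h, and the neural progenitor factors climb from 1.62 at 53.5 h to 3.74 at 101.5 h.

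Transcription factors of neuroectoderm and neural progenitors rose. Of 24 genes listed, 23 were in the table and 19 were tested, and all 19 rose (median 2.52). For 7 of them, which passed the filter through the late samples alone, the filter fixed the direction. The other 12 rose as well (median 2.49). The remaining 4, *Sox9*, *Pou3f4*, *Nfia* and *Nfib*, factors of later progenitors and glia, were below the filter, and *Sox9* went from at most 0.295 FPKM early to 0.744, 1.42 and 2.59 FPKM late. *Sox1*, the earliest marker of the neural plate, was at 5.37, 13.1 and 12.2 FPKM early and 46.6, 61.7 and 55.1 FPKM late (2.38 ± 0.30 SE, adjusted p = 0.0019). *Pax6*, a factor of dorsal and intermediate progenitors, was at 5.35, 7.50 and 8.29 FPKM early and 21.8, 35.4 and 39.0 FPKM late (2.02 ± 0.25 SE, adjusted p = 0.0017). Both genes were detected before the switch and had their windows clearly apart.

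Other members came from near 0. *Nr2f1*, a nuclear receptor, was at 0.190, 0.538 and 0.688 FPKM early and 7.85, 19.2 and 30.2 FPKM late (3.60 ± 0.43 SE, adjusted p = 0.0016), and *Nr2f2*, its close relative, was higher by 2.73. *Pou3f2* (also called Brn2, a POU factor of neural progenitors) was at no more than 0.448 FPKM early and 3.42, 11.8 and 13.1 FPKM late (2.92 ± 0.43 SE, adjusted p = 0.0029). *Hes3*, a bHLH repressor of progenitors, went from 0.775, 2.05 and 0.901 FPKM to 11.9, 19.9 and 24.0 FPKM (3.12 ± 0.30 SE, adjusted p = 0.0013), and was back at 2.08 to 14.7 FPKM from 125.5 h on. *Zbtb16* (Plzf, a factor of early neural rosettes), *Zeb2* (a zinc finger repressor that blocks Smad signals), *Zfp521* (a nuclear factor that promotes the neural fate) and *Sox11* (a SoxC factor of progenitors and young neurons) rose by 2.88, 2.45, 2.34 and 2.52. *Sox21*, *Meis1* and *Meis2*, factors of progenitors and of the posterior axis, were higher by 2.87, 2.79 and 2.82. Against 53.5 h alone 18 of the 19 rose, *Zfp238* being the exception (0.37, adjusted p = 0.075).

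**Figure D4:**
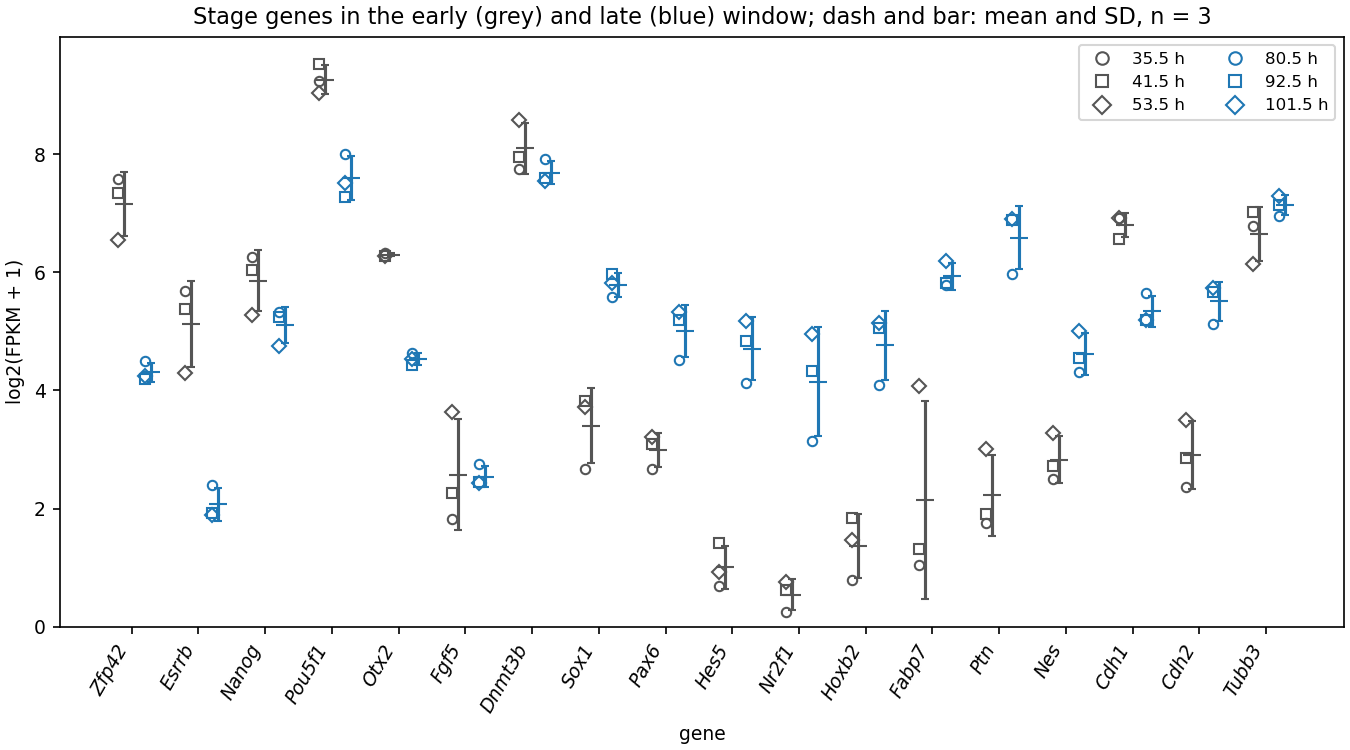
log2(FPKM + 1) (y axis) of 18 stage genes (x axis) in the 3 early (grey) and 3 late (blue) libraries, with the mean and SD of each window (n = 3). Zfp42, Esrrb, Pou5f1, Otx2 and Cdh1 sit lower and Sox1, Pax6, Hes5, Nr2f1, Hoxb2, Fabp7, Ptn, Nes and Cdh2 higher in every late library, whereas the windows of Nanog, Fgf5, Dnmt3b and Tubb3 overlap.

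Most effector genes of neural progenitors and radial glia rose. Of 19 genes, 18 were tested and 17 rose, 3 of them having passed through the late samples alone (median 1.63, 1.40 over the other 15). *Nes*, the intermediate filament nestin, was at 4.64, 5.58 and 8.68 FPKM early and 18.8, 22.4 and 31.1 FPKM late (1.79 ± 0.25 SE, adjusted p = 0.0026). *Ednrb*, an endothelin receptor, went from 0.0734, 0.225 and 0.278 FPKM to 4.87, 10.5 and 17.3 FPKM (3.17 ± 0.38 SE, adjusted p = 0.0016). *Igfbp5*, a binding protein of insulin-like growth factors, *Fgfr3*, an FGF receptor of ventricular progenitors, and *Msi1*, an RNA-binding protein of neural stem cells, were higher by 2.54, 1.93 and 2.19. *Vim*, another intermediate filament, was abundant in both windows and had the smallest rise, from 96.2 to 134 FPKM to 136 to 208 FPKM (0.62, adjusted p = 0.040). The glutamate transporter *Slc1a3*, a marker of mature radial glia, did not pass (0.44, adjusted p = 0.29), and *Sparcl1* was below the filter at 0.611 to 0.821 FPKM late.

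Several factors of posterior regional identity rose. Of 27 genes listed for the midbrain, hindbrain and spinal cord, 26 were in the table and 12 were tested, of which 8 rose and 0 fell (median 1.82), 3 having passed through the late samples and 1 through the early ones alone, and of the other 8 genes 5 rose. *Hoxb2*, a Hox gene of the hindbrain, was at 0.724, 2.59 and 1.76 FPKM early and 16.0, 32.2 and 34.3 FPKM late (3.40 ± 0.36 SE, adjusted p = 0.0013). *Hoxa2*, of the same paralogue group, went from 0.252, 1.04 and 0.717 FPKM to 7.85, 11.4 and 13.7 FPKM (2.84 ± 0.25 SE, adjusted p = 0.0011). *Dbx1* was at 0, 0.161 and 0.459 FPKM early and 4.61, 15.9 and 28.6 FPKM late (3.57 ± 0.55 SE, adjusted p = 0.0034). All 3 genes were highest at 101.5 h within the late window.

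*Irx3* and *Irx5*, Iroquois factors of the posterior neural plate, rose by 2.77 and 2.55. *Hoxb1*, a marker of a hindbrain segment, was at 6.19 to 6.77 FPKM late after at most 1.20 FPKM early (2.03, adjusted p = 0.0013) and was at 0.216 FPKM at 216 h. The dorsal factor *Pax3* was higher by 1.62. *En2* and *Gbx2*, which flank the midbrain-hindbrain border, did not pass (0.08 and -0.30, adjusted p = 0.80 and 0.30). Of the 14 members below the filter, 10 were higher in all 3 late samples (38.2% of all genes below the filter), among them *Pax7*, a dorsal factor, at 0.948, 2.59 and 3.63 FPKM late, and *Olig2*, a ventral factor, at 0.708, 1.13 and 1.24 FPKM.

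Few forebrain genes could be tested. Of 18 genes 7 were in the table and 1 was tested, *Lhx2*, a factor of the eye field and cortex, which rose from 0.649, 1.35 and 0.962 FPKM to 2.83, 2.74 and 3.53 FPKM (1.03 ± 0.17 SE, adjusted p = 0.0047). Of the 6 below the filter 2 were higher in all 3 late samples, near the 38.2% of all genes below the filter. *Six3*, an anterior factor, was below the filter and did not exceed 0.136 FPKM in any of the 6. The other 11 genes were not analysed here.

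Several Notch targets rose, while most ligands and receptors of the pathway did not pass. The pathway works by contact, ligands of the Delta and Jagged families on one cell releasing the intracellular part of a Notch receptor on its neighbour, which then joins the DNA-binding protein *Rbpj* at target promoters. Of 25 genes 23 were in the table and 22 were tested, with 9 that rose, 2 that fell and 11 that did not pass (median 0.44, 0.27 after GC and length correction), 2 having passed through the late samples alone, and of the other 20 genes 7 rose and 2 fell. Without the 35.5 and 41.5 h libraries 12 rose and 2 fell (median 0.56). *Hes5*, the bHLH repressor that is the usual target in neural progenitors, was at 0.606, 1.66 and 0.890 FPKM early and 16.4, 27.5 and 34.97 FPKM late (3.70 ± 0.30 SE, adjusted p = 0.0010). The windows did not overlap, and the late values increased with time.

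The targets *Hes1*, *Hey1* and *Nrarp*, the last a feedback inhibitor of the pathway, rose by 1.26, 1.21 and 2.14. *Nrarp* was at 1.67, 2.20 and 1.80 FPKM early and 8.16, 12.9 and 15.1 FPKM late. *Lfng*, the glycosyltransferase Lunatic fringe that modifies the receptors, went from 2.28, 2.35 and 0.992 FPKM to 6.55, 7.97 and 11.0 FPKM (1.74 ± 0.26 SE, adjusted p = 0.0032), and *Maml3*, a coactivator, was higher by 1.58. Among receptors *Notch3* rose (0.80, adjusted p = 0.0069), while *Notch1*, at 17.7, 9.67 and 9.25 FPKM early and 14.2, 15.3 and 12.9 FPKM late, did not pass (0.25, adjusted p = 0.43). Of the ligands *Jag1* rose (1.24, adjusted p = 0.0019), whereas *Dll1* and *Dll3* did not pass (0.28 and 0.17, adjusted p = 0.13 and 0.49). *Rbpj* itself fell, from 73.5, 60.9 and 62.6 FPKM to 34.1, 36.1 and 34.6 FPKM (-0.89 ± 0.11 SE, adjusted p = 0.0018), and the windows did not overlap.

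To show the target promoters beside these values, the RefSeq promoter windows (250 bases before to 50 after the start, mouse build GRCm38.p6) of *Hes5* and *Lfng* are given, 5′ to 3′ on the gene's strand, with the core of the *Rbpj* site, GTGGGAA on either strand, in capitals. *Hes5* lies on the plus strand at chr4:154960673-154960972 and holds 2 matches, 1 on the other strand beginning 226 bases before the start and 1 on the gene's strand 83 bases before it. *Lfng* lies on the plus strand at chr5:140607091-140607390 and holds 1 match, 109 bases before the start.
Hes5: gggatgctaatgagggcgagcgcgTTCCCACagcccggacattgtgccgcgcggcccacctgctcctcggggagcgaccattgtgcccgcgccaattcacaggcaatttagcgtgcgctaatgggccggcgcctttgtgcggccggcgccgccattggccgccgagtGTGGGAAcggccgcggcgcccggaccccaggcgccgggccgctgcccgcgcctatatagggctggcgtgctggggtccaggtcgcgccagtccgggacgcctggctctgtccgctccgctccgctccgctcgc
Lfng: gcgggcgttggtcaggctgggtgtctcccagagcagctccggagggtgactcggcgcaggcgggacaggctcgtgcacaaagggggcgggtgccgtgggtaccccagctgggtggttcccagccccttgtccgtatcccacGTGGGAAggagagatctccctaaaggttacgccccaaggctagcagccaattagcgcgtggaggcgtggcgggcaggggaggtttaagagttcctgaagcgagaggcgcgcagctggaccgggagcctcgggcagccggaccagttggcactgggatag
The letters GTGGGAA occur on 1 strand or the other in 6.38% of all 32851 promoter windows of the table, in 7.03% of the 8490 tested genes with a window, in 7.35% of those that rose and in 7.36% of those that fell, and in 3 of 21 genes of the Notch list (*Hes5*, *Lfng* and Hey2, the last not analysed here for expression). Such a match is a description of the sequence and was not measured as binding.

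Proneural factors and genes of young neurons rose in part and were mostly low. Of 31 genes 29 were in the table and 21 were tested, with 15 that rose, 1 that fell and 5 that did not pass (median 1.15), 6 having passed through the late samples alone. Of the other 15 genes 9 rose, and after GC and length correction 13 of the list rose (median 0.54). *Neurog1*, a proneural bHLH factor, was at 0.0640, 0.139 and 0.174 FPKM early and 1.13, 2.70 and 5.15 FPKM late (1.70 ± 0.35 SE, adjusted p = 0.0097). *Nefm*, a neurofilament subunit, went from 0.521, 0.612 and 1.13 FPKM to 5.00, 6.15 and 10.1 FPKM (2.17 ± 0.26 SE, adjusted p = 0.0016) and was at 104 FPKM at 216 h. *Nefl*, another neurofilament, *Elavl4*, a neuronal RNA-binding protein, and *Nhlh1*, a bHLH factor of newborn neurons, rose by 1.60, 1.66 and 1.62.

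*Dcx*, a microtubule protein of migrating neurons, was at 1.35, 1.80 and 2.50 FPKM late after at most 0.241 FPKM (1.35, adjusted p = 0.0019), a direction fixed by the filter. The proneural factor *Neurog2* was below the filter, at 0.445, 1.19 and 0.963 FPKM late. *Tubb3*, the neuronal tubulin, was at 109, 129 and 69.8 FPKM early and 123, 141 and 156 FPKM late (0.48 ± 0.22 SE, adjusted p = 0.12), so the windows overlapped, and against 53.5 h alone the difference was 0.99 (adjusted p = 0.0011). It was at 229 to 664 FPKM from 125.5 h on. The neurofilament protein *Ina* fell (-0.56, adjusted p = 0.020).

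Several epithelial adhesion genes fell and N-cadherin rose. Of 23 genes 21 were tested, with 10 that fell, 5 that rose and 6 that did not pass (median -0.56), against 9 and 3 without the 35.5 and 41.5 h libraries (median -0.23). *Cdh1*, E-cadherin, was at 120, 94.0 and 119 FPKM early and 49.1, 35.4 and 35.5 FPKM late (-1.46 ± 0.17 SE, adjusted p = 0.0015). *Cdh2*, N-cadherin, the cadherin of the neural tube, was at 4.16, 6.23 and 10.3 FPKM early and 34.1, 49.7 and 52.1 FPKM late (2.60 ± 0.30 SE, adjusted p = 0.0015). The 2 cadherins thus reached similar levels at 80.5 to 101.5 h, and neither overlapped between windows.

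*Cdh3* (P-cadherin), *Cldn4* (a tight junction claudin), *Grhl2* (a factor that holds epithelial junction genes) and *Epcam* fell by 1.92, 1.73, 1.57 and 1.00. The repressors of E-cadherin *Zeb1* and *Zeb2* were higher by 0.68 and 2.45, while *Snai1* did not pass (-0.22, adjusted p = 0.30). The simple epithelial keratins *Krt8* and *Krt18* rose by 1.05 and 0.61 to late values of 6.43 to 7.97 FPKM and 7.67 to 8.42 FPKM. *Krt18* did not pass without the 35.5 and 41.5 h libraries (0.42, adjusted p = 0.053) or after scaling (0.46, adjusted p = 0.058).

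Of 17 FGF pathway genes tested, 5 rose, 4 fell and 8 did not pass (median -0.01), against 23.2% and 13.2% of all genes. The filter fixed the direction of 1 of the rises. Among the ligands *Fgf15*, an FGF of the neural tube, rose from 6.67, 6.72 and 8.72 FPKM to 34.3, 32.6 and 31.0 FPKM (2.01 ± 0.14 SE, adjusted p = 0.0010), against the falls of *Fgf4* and the overlap of *Fgf5* given above. Of the receptors, *Fgfr1*, *Fgfr2* and *Fgfr3* rose by 0.84, 0.72 and 1.93. *Spry4*, a feedback inhibitor of the ERK cascade, went from 18.7, 17.9 and 16.7 FPKM to 6.43, 3.46 and 5.67 FPKM (-1.63 ± 0.21 SE, adjusted p = 0.0018), and *Etv4* and *Etv5* fell by 1.05 and 1.63. *Spry1*, *Spry2* and *Dusp6*, also feedback genes, did not pass (-0.01, 0.05 and -0.27). Without the 35.5 and 41.5 h libraries 4 rose and 8 fell (median -0.26).

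In the BMP pathway 8 of 15 tested genes rose, 1 fell and 6 did not pass (median 0.71, 0.38 after GC and length correction and 0.44 without the 35.5 and 41.5 h libraries). *Fst*, follistatin, a secreted antagonist of activin and BMP ligands, was at 2.29, 3.13 and 3.97 FPKM early and 21.6, 36.3 and 27.8 FPKM late (2.83 ± 0.23 SE, adjusted p = 0.0010). The ligand *Bmp4* went from 3.18, 2.25 and 1.46 FPKM to 0.630, 0.586 and 0.780 FPKM (-0.95), a direction fixed by the filter, which it passed through the early samples alone. Of the 4 Id genes, which encode inhibitors of bHLH factors and are targets of BMP and other signals, 3 rose.

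*Id2*, at 5.08, 7.93 and 8.41 FPKM early and 28.2, 35.9 and 41.1 FPKM late, rose most (2.16 ± 0.21 SE, adjusted p = 0.0013), *Id4* and *Id1* rose by 1.34 and 1.05, and *Id3* did not pass (0.72, adjusted p = 0.12). The type II receptor *Bmpr2* rose (1.13, adjusted p = 0.035) but not against 53.5 h alone (0.39, adjusted p = 0.18). *Smad1*, a signal transducer, rose by 0.67 (adjusted p = 0.014). Noggin, the antagonist encoded by *Nog*, was below the filter at 0.266 to 0.456 FPKM late.

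In the Nodal pathway list the ligand fell and the Lefty inhibitors rose. Of 14 tested genes 7 rose, 3 fell and 4 did not pass (median 0.33), against 23.2% and 13.2% of all genes. The ligand gene *Nodal* was at 30.0, 31.4 and 15.7 FPKM early and 9.31, 6.42 and 7.35 FPKM late (-1.57 ± 0.27 SE, adjusted p = 0.0052), and its co-receptor *Tdgf1* fell too. *Lefty1*, a secreted Nodal inhibitor that is itself a target of the pathway, went from 9.37, 12.2 and 11.4 FPKM to 55.4, 39.7 and 34.3 FPKM (1.86 ± 0.19 SE, adjusted p = 0.0013), and *Lefty2* was higher by 1.16. The receptor *Acvr2a* rose by 1.53. After scaling 5 genes of the list rose and 3 fell (median 0.17), against 17.5% and 19.1% of all genes.

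Most Wnt genes tested rose, a pair of secreted inhibitors by the largest amounts. Of 25 tested, 17 rose, 3 fell and 5 did not pass (median 0.81), 5 having passed through the late samples alone, and of the other 20 genes 12 rose. The secreted inhibitor *Sfrp1* was at 5.61, 7.82 and 7.92 FPKM early and 72.5, 118 and 105 FPKM late (3.60 ± 0.21 SE, adjusted p = 0.0010), and its relative *Sfrp2* went from 9.50, 16.8 and 17.2 FPKM to 58.7, 115 and 146 FPKM (2.74 ± 0.36 SE, adjusted p = 0.0020). Both were already expressed in the early window, and neither overlapped between windows.

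Among ligands *Wnt7b*, used in neural tissue, was at 1.27, 4.17 and 5.71 FPKM late after at most 0.729 FPKM (1.53 ± 0.38 SE, adjusted p = 0.019), a direction fixed by the filter. The receptor *Fzd3*, needed for axon tracts and neural tube closure, went from 0.994, 0.944 and 3.18 FPKM to 11.2, 15.7 and 15.5 FPKM (2.56 ± 0.32 SE, adjusted p = 0.0018), whereas *Fzd5* fell by 1.01. The feedback target *Axin2* was at 2.91 to 3.51 FPKM early and 8.02 to 8.78 FPKM late (1.17, adjusted p = 0.0015). *Lef1* and *Tcf7*, transcription factors of the pathway, fell by 0.69 and 0.42.

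Retinoic acid genes moved in both directions. Of 15 tested, 8 rose, 3 fell and 4 did not pass (median 0.65, 0.35 without the 35.5 and 41.5 h libraries), 2 having passed through the late samples and 1 through the early ones alone, and of the other 12 genes 6 rose and 2 fell. *Crabp2*, which carries retinoic acid to its receptors, was at 8.71, 14.9 and 21.3 FPKM early and 130, 212 and 324 FPKM late (3.79 ± 0.39 SE, adjusted p = 0.0013). *Cyp26b1*, an enzyme that breaks it down, went from 0.179, 0.371 and 0.802 FPKM to 2.21, 9.40 and 12.5 FPKM (2.42 ± 0.50 SE, adjusted p = 0.010), and *Cyp26a1* was higher by 1.53. The 3 genes increased from each late time point to the next.

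On the side of synthesis *Aldh1a2*, the enzyme that makes retinoic acid in the embryo, was low in both windows, at 1.24 to 1.31 FPKM early and 0.467 to 0.663 FPKM late (-0.55, adjusted p = 0.011). The receptor *Rarg* fell from 62.4, 72.5 and 53.8 FPKM to 21.9, 16.5 and 16.3 FPKM (-1.73 ± 0.16 SE, adjusted p = 0.0012). *Stra8*, a gene induced by retinoic acid in germ cells, fell from 9.43, 21.3 and 3.93 FPKM to 2.25, 0.655 and 1.46 FPKM (-2.15 ± 0.52 SE, adjusted p = 0.018).

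Most hedgehog genes tested rose. Of 10 tested, 6 rose, 2 fell and 2 did not pass (median 0.76, 0.49 after GC and length correction). The co-receptors *Boc* and *Gas1* went from 1.16, 1.43 and 1.24 FPKM to 8.59, 14.9 and 16.0 FPKM (2.59 ± 0.23 SE, adjusted p = 0.0011) and from 1.64, 3.44 and 3.01 FPKM to 10.4, 12.9 and 17.8 FPKM (1.99 ± 0.26 SE, adjusted p = 0.0020). *Smo*, the signal transducer, and *Gli3*, mostly a repressor, rose by 1.43 and 1.40. The target *Gli1* fell by 1.26, *Ptch1*, another target, was lower in all 3 late samples but did not pass (-0.66, adjusted p = 0.054), and the ligand gene *Shh* did not exceed 0.0448 FPKM in the 6 libraries.

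Of 8 DNA methylation enzymes and cofactors tested, 2 fell, 1 rose and 5 did not pass (median -0.58), near the 36.4% of all genes that passed. *Dnmt3l*, the cofactor of the de novo enzymes, was at 93.5, 123 and 61.1 FPKM early and 20.9, 14.4 and 13.9 FPKM late (-2.40 ± 0.27 SE, adjusted p = 0.0015). *Tet3*, a dioxygenase of 5-methylcytosine used in neural cells, rose by 1.44 (adjusted p = 0.0063). *Tet1* and *Tet2*, its relatives in mESCs, were lowest of the early libraries at 41.5 h, at 4.82 and 1.16 FPKM against 27.3 and 9.04 FPKM at 53.5 h. They did not pass (both -0.75, adjusted p = 0.30 and 0.26), and against 53.5 h alone lay at -1.63 and -1.70 (adjusted p = 0.00055 and 0.00030), with 5 genes of the list then lower (median -1.26). After GC and length correction 6 fell (median -0.93).

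Genes of the Lin28 and let-7 axis moved in both directions. Of 12 tested, 6 rose, 2 fell and 4 did not pass (median 0.58, 0.37 without the 35.5 and 41.5 h libraries). *Hmga2*, a chromatin protein repressed by let-7 and high in young neural stem cells, was at 3.55, 3.92 and 5.81 FPKM early and 21.6, 40.3 and 35.2 FPKM late (2.60 ± 0.26 SE, adjusted p = 0.0013). *Lin28b*, *Igf2bp3* (an RNA-binding protein of fetal growth) and *Arid3a* rose by 1.55, 1.52 and 1.11, the first by 0.55 against 53.5 h alone. *Myc* and *Mycn*, transcription factors that promote growth, fell by 1.05 and 0.97. *Myc* was still at 7.18 FPKM at 68.5 h and at 4.10, 2.12 and 3.30 FPKM late.

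Of the BAF chromatin remodelling complex 16 subunit genes were tested, with 6 that rose, 2 that fell and 8 that did not pass (median 0.22), against 23.2% and 13.2% of all genes. *Smarca2*, the alternative ATPase also called Brm, went from 0.984, 0.544 and 1.34 FPKM to 4.24, 5.91 and 4.74 FPKM (1.62 ± 0.20 SE, adjusted p = 0.0017), while its counterpart *Smarca4* did not pass (0.16, adjusted p = 0.20). *Smarcc2*, which joins the complex on differentiation, rose by 0.96, and *Smarce1* and *Smarcd3* by 1.12 and 0.80. *Actl6a*, the subunit of stem cells and progenitors, fell by 0.34, and *Actl6b*, that of neurons, was at no more than 0.542 FPKM. *Ss18l1*, the neuronal partner of *Ss18*, rose by 0.72 but not against 53.5 h alone (0.41, adjusted p = 0.088). After scaling 4 genes of the complex rose and 3 fell (median 0.06), against 17.5% and 19.1% of all genes.

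Of 26 G1 and S phase genes 6 rose, 5 fell and 15 did not pass (median 0.00), against 23.2% and 13.2% of all genes. Without the 35.5 and 41.5 h libraries 3 rose and 1 fell (median 0.15), and after GC and length correction 6 rose and 7 fell (median -0.11). *Ccnd2*, cyclin D2 of neural progenitors, was at 16.9, 16.7 and 14.5 FPKM early and 35.1, 48.0 and 63.8 FPKM late (1.51 ± 0.21 SE, adjusted p = 0.0024), and *Cdkn1c*, a cell cycle inhibitor, rose by 0.82. *Ccnd3* and *Ccne1*, cyclins D3 and E1, fell by 0.88 and 0.75, and *Ccne2*, cyclin E2, rose by 1.57, but none of these 3 passed against 53.5 h alone (-0.25, -0.29 and 0.41, adjusted p = 0.15, 0.11 and 0.075).

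Of 20 G2 and M phase genes 1 rose, 1 fell and 18 did not pass (median 0.10), a smaller share than the 36.4% of all genes. After scaling 0 rose and 4 fell (median -0.06), and after GC and length correction 3 rose and 5 fell (median -0.05). *Mki67*, the proliferation marker, was at 3.31 and 1.69 FPKM at 35.5 and 41.5 h, at 27.2 FPKM at 53.5 h and at 33.8, 35.9 and 30.4 FPKM late (2.31, adjusted p = 0.052). *Cenpf* and *Cenpe*, kinetochore proteins with long transcripts, were at 0.600 to 0.896 FPKM in the first 2 libraries and at 13.3 to 22.9 FPKM at 53.5 h and late. Against 53.5 h alone *Mki67*, *Cenpf*, *Cenpe* and the checkpoint kinase *Bub1* differed by 0.28, 0.04, -0.18 and 0.08 (adjusted p = 0.13, 0.83, 0.41 and 0.64), and *Mad2l1*, a checkpoint protein that had risen by 0.70, by 0.14 (adjusted p = 0.39). *Mki67*, *Cenpf*, *Cenpe* and *Bub1* were among the 493 that lay low at 35.5 and 41.5 h.

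In glycolysis 4 of 19 genes rose, 3 fell and 12 did not pass (median 0.06), near the 23.2% and 13.2% of all genes, and without the 35.5 and 41.5 h libraries 7 rose and 3 fell (median 0.21). *Ldhb*, a lactate dehydrogenase subunit, fell from 331, 305 and 222 FPKM to 94.2, 67.3 and 66.2 FPKM (-1.90 ± 0.20 SE, adjusted p = 0.0013), *Pfkp*, a phosphofructokinase, by 1.80, and *Pdk1*, a kinase that shuts pyruvate out of the mitochondrial cycle, by 1.45. *Pgk1* and *Tpi1*, enzymes of the lower pathway, rose by 0.88 and 0.77, the second not after scaling (0.60, adjusted p = 0.073), when 1 gene of the list rose and 3 fell. Of 17 cholesterol synthesis genes 8 rose and 0 fell (median 0.40), led by *Idi1*, *Sc4mol*, *Cyp51*, *Nsdhl* and *Hsd17b7* at 1.32, 1.20, 0.97, 0.90 and 0.76. After scaling 5 genes of this list rose (median 0.23) and without the 35.5 and 41.5 h libraries 10, and *Hsd17b7* did not pass against 53.5 h alone (0.41, adjusted p = 0.059).

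Some genes of the p53 pathway fell. Of 14 genes 6 fell, 0 rose and 8 did not pass (median -0.33, -0.54 after GC and length correction). *Trp53* was at 275, 342 and 236 FPKM early and 179, 133 and 163 FPKM late (-0.83 ± 0.17 SE, adjusted p = 0.0098), and the targets *Sesn2* (a stress-induced inhibitor of growth signalling), *Perp* (a desmosomal membrane protein) and *Gtse1* fell by 0.86, 0.78 and 0.73. *Ccng1*, cyclin G1, did not pass (0.75, adjusted p = 0.089) and was at -0.04 against 53.5 h alone. Of 9 immediate early genes, which respond to growth factors and handling within minutes, 4 fell and 5 did not pass (median -0.66), and without the 35.5 and 41.5 h libraries 2 fell (median -0.18). *Junb*, *Nr4a1* and *Ier2* fell by 0.74, 0.74 and 0.71, the first 2 not against 53.5 h alone (-0.47 and -0.26, adjusted p = 0.052 and 0.24), and *Atf3* did not pass (-0.66, adjusted p = 0.15).

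Of 7 Src family genes tested 4 rose, 2 fell and 1 did not pass (median 0.56, 0.35 after GC and length correction), against 23.2% and 13.2% of all genes. The filter fixed the direction of 1 rise and 1 fall, and of the other 5 genes 3 rose and 1 fell. *Fyn*, the member used in neural cells, was at 7.32, 10.3 and 8.21 FPKM early and 15.5, 21.4 and 20.6 FPKM late (1.07 ± 0.18 SE, adjusted p = 0.0047), and *Csk*, the kinase that restrains the family, rose by 0.69. *Lck*, a member best known from blood cells, fell from 25.1, 25.7 and 9.53 FPKM to 6.64, 6.91 and 5.86 FPKM (-1.38). *Yes1*, a member of mESCs, was at 1.54 and 0.677 FPKM in the first 2 libraries and 8.30 FPKM at 53.5 h, did not pass (1.37, adjusted p = 0.098) and was at -0.08 against 53.5 h alone. Of 22 measured genes that the study itself names, 11 rose, 6 fell and 5 did not pass. Those genes were named by the study that made these samples, so the list is no independent evidence of a direction.

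Few markers of mesoderm, endoderm, surface ectoderm and neural crest were high enough to be tested. Of 22 mesoderm and endoderm genes 16 were in the table, 14 of these stayed below 1 FPKM in all 6 libraries, and the summed FPKM was 4.15 to 5.95 early and 5.84 to 7.28 late (exact permutation p = 0.2). *T*, brachyury, was at no more than 0.220 FPKM early and at 0.845, 0.545 and 0.582 FPKM late. *Gata4*, an endoderm factor and the only member tested, rose by 0.51 (adjusted p = 0.031), having passed through the late samples alone, and did not pass after scaling (0.43, adjusted p = 0.050) or against 53.5 h alone (0.44, adjusted p = 0.081).

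Of 17 surface ectoderm and neural crest genes 7 were in the table and summed to 10.1 to 11.4 FPKM early and 11.3 to 13.2 FPKM late (exact permutation p = 0.2). Of the 4 tested, 2 rose, 1 fell and 1 did not pass, against 23.2% and 13.2% of all genes. *Grhl3*, an epidermal factor, fell by 1.47, having passed the filter through the early samples alone and so with its direction fixed, *Twist1*, a mesenchymal factor, rose by 0.81, but not against 53.5 h alone (0.43, adjusted p = 0.074), and *Ngfr* was at -0.27 (adjusted p = 0.36). Fibroblast genes summed to 170 to 306 FPKM early and 126 to 147 FPKM late (exact permutation p = 0.1). Of 14 tested, 4 fell and 0 rose, namely *S100a6*, *Col3a1*, *Col6a1* and *Col6a2* at -1.29, -1.19, -1.18 and -0.88, *Col1a2* did not pass (-0.72, adjusted p = 0.064), and *Col6a2* did not pass against 53.5 h alone (-0.49, adjusted p = 0.058). Without the 35.5 and 41.5 h libraries 3 fibroblast genes fell and 1 rose, and after GC and length correction 8 fell (medians -0.09 and -0.64, against -0.55). The part of such cells in the falls of other genes was not tested.

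The library at 68.5 h, which neither window used, lay between them. The 133 genes higher by over 2 had made a median of 51.5% of their change at that time (quartiles 37.5 and 63.7%), and the 83 genes lower by over 2 a median of 60.9% (quartiles 51.0 and 70.6%). *Fgf15*, *Hes5* and *Ptn* were at 51.7, 52.5 and 54.6% of their change, *Sox1* and *Sox3* at 66.1 and 75.5%, and *Zfp42* and *Esrrb* at 63.0 and 74.0%. *Crabp1*, *Zbtb16*, *Ednrb* and *Ccnd2* were at 22.1 to 26.3%, and *Myc* at 5.14%. Most of the changes were kept, with 124 of the 133 genes still past the midpoint of their change at 216 h and 75 of the 83. These are values of single libraries, given without a test.

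The same windows were taken in the other culture of the series, serum-free floating aggregates (SFEB), at 34, 42.5 and 54.5 h against 80, 92 and 103 h. No sample is shared, but the table was normalised and batch corrected separately, so each culture was tested within its own table. In SFEB 2726 of 11913 genes rose (22.9%) and 1888 fell (15.8%). Of the 2621 genes that rose in the adherent culture and were tested in both, 1817 (69.3%) rose in SFEB and 19 fell, against 23.1% and 15.6% of the 11556 genes tested in both. Of the 1489 that fell, 902 (60.6%) fell in SFEB and 4 rose. As shares of the SFEB calls these are 68.0% of its rises and 50% of its falls. Of the genes with changes over 2, 122 of 129 rises and 71 of 81 falls were found again.

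Genes of low GC content split differently between the cultures, since in SFEB 18.0% of the group of lowest GC content rose and 18.4% fell, against 27.2% and 4.28% in the adherent culture. *Ptn*, *Sox1* and *Sox21* rose in SFEB by 4.30, 3.03 and 3.55, and *Zfp42*, *Nr0b1* and *Dnmt3l* fell by 1.82, 2.01 and 3.34. The forebrain gene *Lhx2* rose by 2.41 there against 1.03 in the adherent culture, whereas *Hoxb2* and *Hoxa2* rose by 2.38 and 2.12 against 3.40 and 2.84. Neuronal *Elavl3* did not pass in SFEB (0.25, adjusted p = 0.31). None of these differences between cultures was tested.

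**Figure D5:**
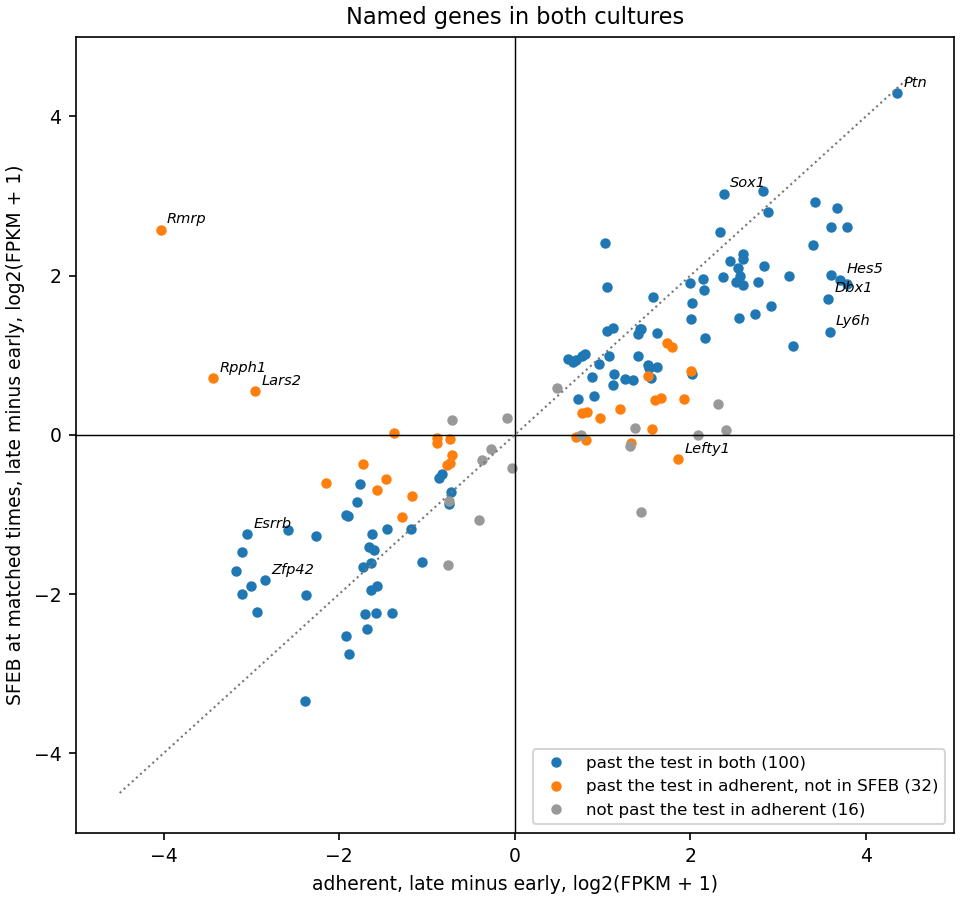
Late minus early log2(FPKM + 1) in the adherent culture (x axis) against the same difference in SFEB at matched times (y axis) for 148 named genes tested in both. Of these, 100 passed in both cultures, 32 in the adherent culture but not in SFEB, and 16 not in the adherent culture, and Rmrp, Rpph1 and Lars2 lie far left of 0 in the adherent culture and above 0 in SFEB.

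A few genes did not move alike. *Rmrp*, *Rpph1* and *Lars2* were at 2.58, 0.71 and 0.55 in SFEB and did not pass (adjusted p = 0.13, 0.64 and 0.42), with high and low libraries in both windows. *Lefty1* was at -0.31 (adjusted p = 0.77) in SFEB, where it stood at 65.3 to 138 FPKM early, 181 and 139 FPKM at 80 and 92 h and 17.9 FPKM at 103 h. In all, 23 genes passed in opposite directions in the 2 cultures, among the listed ones *Fzd7*, a Wnt receptor (0.81 adherent, adjusted p = 0.027, and -0.51 in SFEB, adjusted p = 0.048), which did not pass in the adherent culture against 53.5 h alone (0.33, adjusted p = 0.14).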

How the data were processed

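RNA-seq libraries (Nextera XT) of 6 adherent monoculture samples were compared as late (80.5, 92.5 and 101.5 h) against early (35.5, 41.5 and 53.5 h), grouped by the induction time in the labels. The deposited values are FPKM per gene, which the authors made from reads aligned to mm9. The submitters' processing notes name TopHat2 2.0.8b and Cufflinks 2.1.1, whereas the study's methods name earlier versions of both, and which were used is not known. The gene annotation is not given in the sources used here. Reads were not counted, so a count test could not be used, and the depth behind each value is unknown. The summed FPKM was 489722 to 557785 per library, and 11031 to 11808 genes were above 1 FPKM. The deposited SFEB values are FPKM after ComBat batch correction by the authors, with 188 values below 0 set to 0 here. A further 16 SFEB columns of per-sample values were not used.

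Genes above 1 FPKM in at least 3 of 6 samples were tested on log2(FPKM + 1) with limma 3.58.1 (R 4.3.3, trended variance prior), and p-values were Benjamini-Hochberg adjusted over all genes tested. Sums of marker genes were compared by exact permutation. In simulated data with the adherent design (11918 genes) the test recovered 74% of 100 genes changed by 1 and 95% of 100 changed by 2 on the log2 scale, with 8 false calls. The changed genes were drawn from those of higher mean level alone, and every value varied independently. The simulation therefore does not cover genes near 1 FPKM or shifts shared by the genes of a library. GC correction removed, within each sample, a natural spline of transcript GC content and log length for the 11579 genes (97.2%) matched to a GENCODE M1 transcript. The fit held an intercept, so it also recentred each library. Tables were built with Python 3.11.15, pandas 2.3.3 and numpy 2.4.6, and figures with matplotlib 3.10.9. Alternatives were another pseudocount (0.1), other filters, scalings, a trend over time and each library left out.

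Named genes were the 10 largest rises and falls with separate windows, up to 5 measured genes of each list and the genes the study names, 154 in all, and SFEB values are given for such genes alone. Other genes were named after their values were seen. The members, the 30 lists and the tests were chosen with earlier results of these data known. Results for some listed genes are not reported here, though the counts over lists include them.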

Additional observations from a re-analysis of the deposited data

How the results depend on the processing

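The counts of genes that rose or fell depended on single libraries. Leaving out each library in turn gave 1262 to 4765 rises and 691 to 2405 falls in the adherent culture, against 2760 and 1575, and 1652 to 2702 rises and 1078 to 1947 falls in SFEB, against 2726 and 1888. The adherent counts were 4765 and 2405 without 53.5 h, 1471 and 865 without 35.5 h, 1262 and 691 without 92.5 h, and 1355 and 740 without 101.5 h. In SFEB they were 1751 and 1183 without 42.5 h, and 1652 and 1078 without 92 h. A filter of mean FPKM above 5, which tests fewer genes, gave 1376 rises and 1033 falls in the adherent culture and 1685 rises in SFEB. Quantile normalisation gave 1798 rises and 2182 falls in the adherent culture. GC and length correction, chosen after seeing the data, gave 2777 adherent falls. It also recentred each library, and how many of these falls came from that alone was not tested. A pseudocount of 0.1, no filter, a constant variance prior and a slope over time gave 2612 to 3945 adherent rises and 1506 to 1973 falls.

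Of the 154 named genes 137 passed. Of these, 125 passed under every other filter, pseudocount, scaling, prior and trend tried in which they were tested, 111 with each library left out, and 124 under both alternatives added after seeing the data, and 0 changed direction. The filter of mean FPKM above 5 left 31 of the 137 untested, and the GC and length correction 3. Among genes that had not passed, the sign changed without the 35.5 and 41.5 h libraries for *Ccng1* (-0.035), *Cenpe* (-0.18), *Ngfr* (0.20), *Rif1* (-1.04) and *Yes1* (-0.083). It also changed for *Fgf5* with a pseudocount of 0.1 (0.0019), as a slope (0.15) and without 53.5 h (0.50), 92.5 h (0.01) or 101.5 h (0.03), and for *Zic2* without 53.5 h (0.059). With each library left out in turn *Fgf5* lay between -0.41 and 0.50 and *Zic2* between -0.28 and 0.059.

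No paired analysis was possible because the time points compared carry no replicate numbers. Time and library cannot be told apart with 1 library per time, and the depth behind low values is unknown.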

Other observations

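Several keratin and mesendoderm genes were higher in the library at 144 h than in the one at 140.5 h. The keratin genes *Krt8*, *Krt18* and *Krt19* were at 141, 196 and 32.0 FPKM, against 17.1, 18.8 and 3.07 FPKM at 140.5 h. The mesendoderm factors *T* and *Sox17* were at 22.7 and 10.9 FPKM, against 0.489 and 1.95 FPKM. *Shh*, the hedgehog ligand, was at 11.9 FPKM and listed at 0 at 140.5 h. These are values of single libraries outside both windows.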
